A study of Mus musculus with 2 samples.

Results

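The 10 genes described here are the ligand Nodal and the proteins that act closest to it: the ligand Gdf3, the co-receptors Tdgf1 (also called Cripto) and Cfc1 (Cryptic), the secreted antagonists Lefty1, Lefty2 and Cer1, the transcription factor Foxh1, and the convertases Furin and Pcsk6 (PACE4). They were taken by symbol as 10 of 32285 genes, a choice made with earlier results of these data known. With them came the 212 of 229480 accessibility peaks that lay within 50 kb of their starts. Nuclear RNA and open chromatin had been read in the same nuclei of pooled mouse embryos at embryonic day 7.0, with 1 RNA library and 1 accessibility library. The labels give no genotype, treatment or number of embryos, and parts of them name gut tissue, goblet cells and a reporter strain. In the RNA, the 8 goblet and intestinal epithelium markers summed to 1.66 CPM (the group's counts scaled to a common total), against 1482 CPM for 8 epiblast markers and 4195 CPM for 11 visceral endoderm markers.

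Nodal is a secreted signal of the transforming growth factor beta family. It is cleaved by convertases, binds activin receptors only with the help of a co-receptor of the Cripto family, and acts through Smad2, Smad3 and Foxh1. In the gastrulating mouse embryo it patterns the epiblast, the tissue that gives rise to the embryo proper, and it turns on its own gene and those of its Lefty antagonists, while the anterior visceral endoderm secretes antagonists that restrict it to the posterior side.

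After filtering, 12796 nuclei remained, with a median of 10471 RNA molecules (unique molecular identifiers, UMIs) and 17350 peak counts. To read RNA, nuclei were clustered by their chromatin alone, with the peaks near the 10 genes left out. The clusters were then named, and so put on a side or left unnamed, by marker RNA of the same nuclei. This gave 6878 embryonic nuclei (epiblast-like, primitive streak-like, embryonic mesoderm-like, and anterior streak, node and definitive endoderm-like) and 4339 extraembryonic nuclei (visceral and parietal endoderm-like, extraembryonic ectoderm-like, ectoplacental cone and giant cell-like, extraembryonic mesoderm-like and haemato-endothelial progenitor-like). To read accessibility, classes came from RNA clusters made without the 10 genes, with 7241 embryonic and 4121 extraembryonic nuclei. Of 10731 nuclei named in both assays, 96.8% fell on the same side. Class names rest on marker lists that hold none of the 10 genes. The class names below leave out "-like". The parietal endoderm class goes in part against its label: its visceral endoderm markers summed to 10164 CPM beside 4329 CPM for its own list, and it held 405 nuclei by chromatin but 32 by RNA. The extraembryonic mesoderm class had 630.5 CPM of its own list, the most of any class. It also had 1214 CPM of embryonic mesoderm markers and 872 CPM of ectoplacental cone markers. With 1 library there are no replicate embryos, so no test between conditions was possible. Every interval is a 95% interval of counting error only, and molecules of 1 nucleus are not independent.

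A cluster of 508 nuclei matters to several of the results and received no name. Its leading genes included Sfrp5, Fzd5 and Foxq1. Its visceral endoderm markers summed to 6351 CPM, against 17119 CPM in the visceral endoderm class and 884 CPM in epiblast, and its anterior streak, node and definitive endoderm markers to 1116 CPM, against 1626 CPM in that class and 197 CPM in visceral endoderm. Embryonic mesoderm had the same level of that list, 1116 CPM. Lhx1, a member of that list, made up most of both sums. It gave 1016 CPM in embryonic mesoderm and 710 CPM in the cluster. Of 7 genes listed for the anterior visceral endoderm, Sfrp5 (121 CPM), Dkk1 (291 CPM), Hesx1 (26.9 CPM) and Sfrp1 (490 CPM) were higher in the cluster than in any named class. The other 3 were not highest in it: Hhex was at 96.2 CPM, beside 98.1 CPM in the anterior streak class, Otx2 at 181 CPM, beside 272 CPM in that class, and Lhx1 at 710 CPM, beside 1016 CPM in embryonic mesoderm. The cluster was picked out, after the data were seen, by Sfrp5 among its leading genes, so its Sfrp5 level is no result. The naming rule put the anterior streak, node and definitive endoderm list first for it (7 markers raised) but found the parietal endoderm list too close (8 markers raised), so it is called the Sfrp5-led cluster. It belongs to neither side in the main comparison.

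Of the 10 genes, 6 were at least 2-fold higher in embryonic than in extraembryonic RNA, namely Nodal, Gdf3, Tdgf1, Lefty1, Lefty2 and Cer1. Over all 15783 genes with at least 100 UMIs, 14.5% passed the same mark. Furin and Pcsk6 were at least 2-fold higher in extraembryonic RNA, against 12.1% of all genes, and 26.6% of all genes lay 2-fold apart in either direction. Cfc1 and Foxh1 passed in neither direction in this setting. At clustering resolution 0.5 both passed as embryonic (2.04 and 2.20), and Foxh1 also did without extraembryonic mesoderm and haemato-endothelial nuclei (2.21). The median log2 fold was 1.67 over the 10 genes and 0.03 over all genes tested. The embryonic excess of 3 genes depended on where the Sfrp5-led cluster was put: counted as extraembryonic, it lowered the fold of Nodal from 3.04 to 1.61, of Cer1 from 3.34 to 1.26 and of Lefty1 from 4.05 to 1.02, and only 3 genes kept a 2-fold excess. The plot of folds for RNA and promoters shows both settings.

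**Figure D1:**
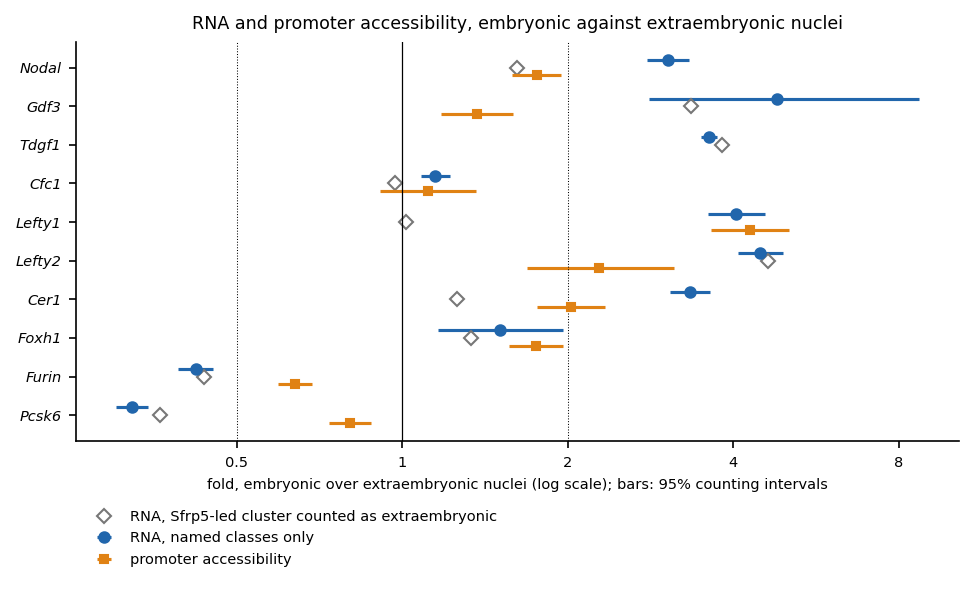
Fold of embryonic over extraembryonic nuclei on a log2-spaced axis for the RNA of each gene (circles), for RNA with the Sfrp5-led cluster counted as extraembryonic (open diamonds, no interval drawn) and for promoter accessibility (squares; Tdgf1 has no promoter peak). Bars are 95% counting intervals and dotted lines mark 2-fold in each direction. Nodal, Lefty1 and Cer1 move below 2-fold between the circles and the diamonds.

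Within the embryo the 10 genes did not share 1 territory. Against all other nuclei, 1 gene was at least 2-fold higher in epiblast (Gdf3, where 8.01% of all genes passed), 1 in primitive streak (Nodal, against 2.46%) and 2 in embryonic mesoderm (Tdgf1 and Lefty2, against 5.38%). The anterior streak, node and definitive endoderm class had 4, namely Tdgf1, Cfc1, Lefty1 and Cer1, against 4.71% of all genes. The Sfrp5-led cluster also had 4, namely Nodal, Cfc1, Lefty1 and Cer1, against 6.41%. Outside the embryo, visceral endoderm had Furin (against 9.83%), extraembryonic ectoderm Pcsk6 (against 6.45%) and extraembryonic mesoderm Cfc1 and Foxh1 (against 5.19%). None of the 10 passed in parietal endoderm, ectoplacental cone or haemato-endothelial nuclei, where 8.1%, 5.88% and 5.31% of all genes did.

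**Figure D2:**
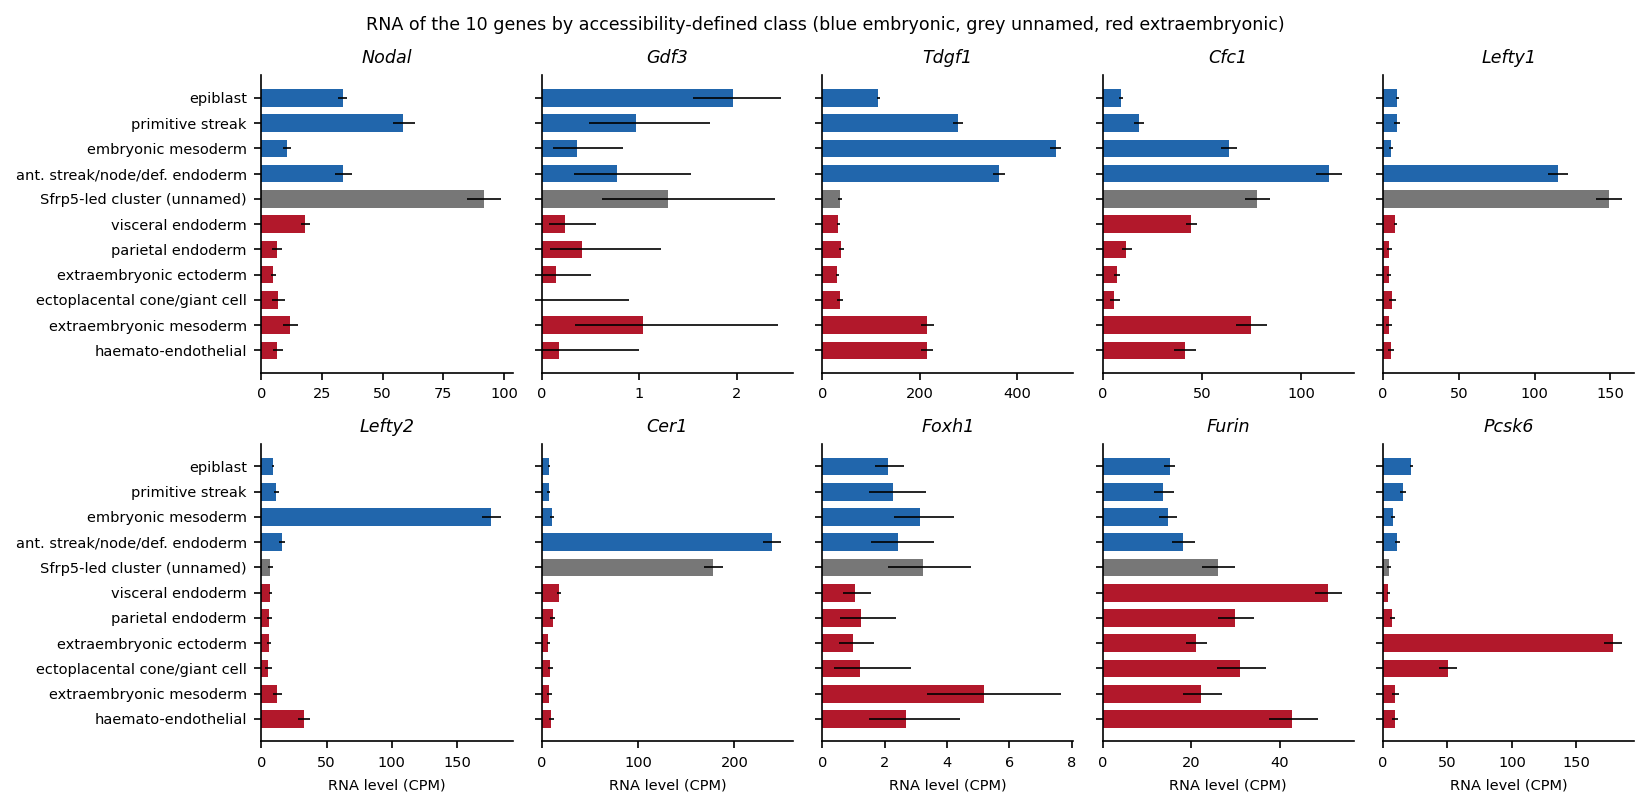
RNA level in CPM of each gene in 10 accessibility-defined classes and the Sfrp5-led cluster, with 95% counting intervals. Each panel has its own scale from 0. Lefty2 stands out in embryonic mesoderm, Cer1 and Lefty1 in the anterior streak class and the Sfrp5-led cluster, and Pcsk6 in extraembryonic ectoderm.

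Printed here are 4 promoters, shown because the chromatin at them differs: the 250 bases before the start lie within a peak for Nodal (234 bases), Cfc1 (250 bases) and Cer1 (250 bases), and in none for Tdgf1. Sequences are from RefSeq on GRCm38.p6, the assembly that mm10 names, 5′ to 3′ on the gene's strand, and RefSeq promoters were matched for 6 of the 10 genes. They lie at chr10:61417722-61417971 on the plus strand (Nodal), chr9:110946159-110946408 on the minus strand (Tdgf1), chr1:34535398-34535647 on the plus strand (Cfc1) and chr4:82885152-82885401 on the minus strand (Cer1). Capitals mark CAGAC, the short Smad-binding core, on either strand.
Nodal: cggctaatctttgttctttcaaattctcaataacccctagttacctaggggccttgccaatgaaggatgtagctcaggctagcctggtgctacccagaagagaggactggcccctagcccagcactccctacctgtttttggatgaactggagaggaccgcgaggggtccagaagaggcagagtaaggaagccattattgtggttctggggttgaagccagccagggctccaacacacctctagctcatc
Tdgf1: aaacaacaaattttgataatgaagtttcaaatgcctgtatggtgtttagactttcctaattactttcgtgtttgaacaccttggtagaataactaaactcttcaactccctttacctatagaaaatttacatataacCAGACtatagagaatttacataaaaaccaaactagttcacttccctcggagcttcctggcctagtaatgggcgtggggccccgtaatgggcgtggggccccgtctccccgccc
Cfc1: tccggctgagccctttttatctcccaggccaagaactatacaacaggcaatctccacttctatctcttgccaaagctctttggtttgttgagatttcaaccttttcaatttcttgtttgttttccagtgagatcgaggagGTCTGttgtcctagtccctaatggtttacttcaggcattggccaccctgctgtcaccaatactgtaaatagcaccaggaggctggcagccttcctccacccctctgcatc
Cer1: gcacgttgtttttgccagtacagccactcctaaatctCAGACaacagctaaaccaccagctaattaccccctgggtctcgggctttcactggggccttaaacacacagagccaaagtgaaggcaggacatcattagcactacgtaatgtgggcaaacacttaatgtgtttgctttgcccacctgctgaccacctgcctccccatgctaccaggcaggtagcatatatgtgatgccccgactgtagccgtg
The Nodal stretch holds no CAGAC, and the other 3 hold 1 each, at −113 in Tdgf1, −110 in Cfc1 and −213 in Cer1, counted from the base before the start. Of 32851 RefSeq promoters, 42.2% hold it in the same 250 bases. Longer motifs were searched on both strands in the 300 bases from 250 before to 50 after the start: FoxH1 (TGTGGATT, in 0.855% of all promoters), T-box (GGTGTGA, 3.98%), the octamer (ATTTGCAT, 1.74%) and Smad (GTCTAGAC or CAGACAGA, 2.74%). None of the matched promoters of the 10 genes, Furin and Pcsk6 included, held any of them. These printed stretches were chosen after the values were seen.

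The ligand Nodal (ENSMUSG00000037171, chr10:61417972-61425338) was at 33.1 CPM in embryonic and 10.9 CPM in extraembryonic RNA, a 3.04-fold difference (2.79 to 3.33). Its highest level was in the Sfrp5-led cluster, at 91.6 CPM (85.0 to 98.6). Primitive streak followed at 58.6 CPM, 1.75-fold (1.59 to 1.92) above epiblast at 33.6 CPM. The anterior streak, node and definitive endoderm class, at 33.8 CPM, did not differ from epiblast beyond counting error. Visceral endoderm reached 18.2 CPM, and embryonic mesoderm 10.4 CPM, below every other embryonic class. The lowest level was in extraembryonic ectoderm, at 4.94 CPM (3.85 to 6.24).

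Nodal also varied within classes. Of the RNA clusters in the epiblast class, the one led by Plpp4 and Cxcl12 held 54.1 CPM and the one led by Nxph1 and Kcnh8 held 20.5 CPM, a 2.64-fold difference (2.34 to 2.98). In visceral endoderm, the RNA cluster led by Arid3c, Kynu and F5 held 50.1 CPM and the one led by Bmp6 and Cubn 7.18 CPM, 6.98-fold apart (5.60 to 8.77). The visceral endoderm mean thus combines groups of nuclei with high and low Nodal. With each nucleus thinned to 3000 UMIs, 22.7% of Sfrp5-led nuclei, 15.5% of primitive streak nuclei and 10.1% of epiblast nuclei had a Nodal UMI. In extraembryonic ectoderm, taken for comparison, the share was 1.37%, and background itself was not measured. Unthinned, these shares were 60.2%, 43.7%, 26.1% and 6.93%, at median depths of 14692, 10394, 9931 and 13392 UMIs.

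At the Nodal locus, 32 peaks had at least 100 counts, 7 of them at least 2-fold higher in embryonic and 5 in extraembryonic nuclei. Over the peaks near all 10 genes, 38 of 207 tested (18.4%) were embryonic, against 26.8% of 219434 peaks in all, and 35 (16.9%) extraembryonic, against 17.4%; 44.2% of all peaks lay 2-fold apart in either direction. The share of embryonic peaks in these windows was thus below that of all peaks, and the share of extraembryonic peaks near it. The embryonic shortfall was smaller in a narrower window, given with the processing alternatives. A peak 11747 bp upstream of Nodal (chr10:61405763-61406688) was at 38.3 CPM in epiblast, 38.7 CPM in primitive streak and 49.0 CPM in the Sfrp5-led cluster, and at 1.82 CPM in extraembryonic ectoderm, 21.02-fold (13.3 to 35.6) below epiblast. This peak was chosen after its values were seen, by its Pearson's r with Nodal RNA over 20 RNA clusters.

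Another upstream Nodal peak ran the other way. The peak 4547 bp upstream (chr10:61412971-61413879) had the lowest embryonic fold of the locus, 0.166 (0.138 to 0.198). It held 27.3 CPM in visceral endoderm and 17.7 CPM in the Sfrp5-led cluster, but 1.74 CPM in epiblast, 15.7-fold lower (12.3 to 20.3). Extraembryonic mesoderm came next, at 6.17 CPM. The peak with the highest embryonic fold, 7791 bp upstream (chr10:61409833-61410529), was smaller, at 6.53 CPM in embryonic and 1.74 CPM in extraembryonic nuclei, 3.74-fold (2.95 to 4.80). The promoter peak (chr10:61417738-61418567, centred 180 bp inside the gene) differed less, 1.76-fold (1.59 to 1.95). It ran from 29.9 CPM in primitive streak to 8.35 CPM in extraembryonic ectoderm, leaving out parietal endoderm. That class of 32 nuclei had 0 counts there (0 to 12.3 CPM).

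**Figure D3:**
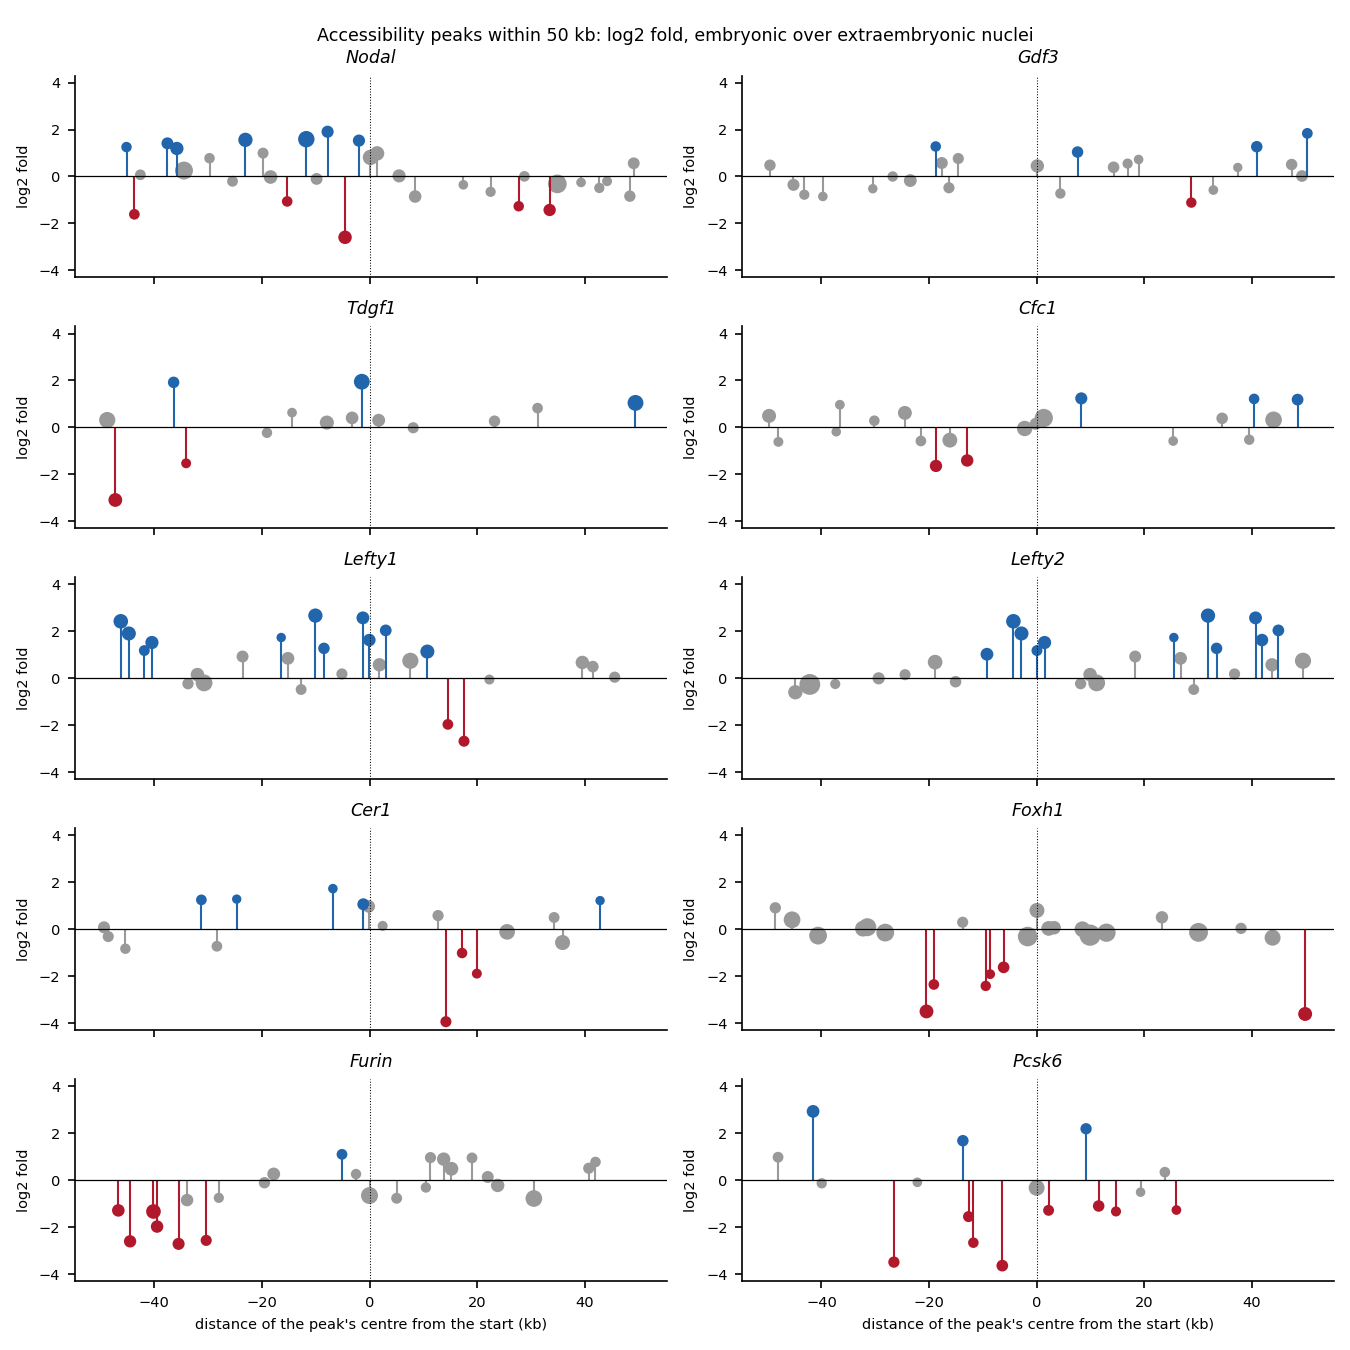
Each point is a peak with at least 100 counts, placed by the distance of its centre from the gene's start (kb, negative upstream) and its log2 fold of embryonic over extraembryonic nuclei; larger points have more counts, and blue and red mark 2-fold or more in each direction. Lefty1 and Lefty2 share 19 peaks. The Lefty1 and Lefty2 panels have 11 blue points each, of 26 and 27. Foxh1 and Furin have 6 red points each, of 24, and Pcsk6 has 8 of 17. Over all peaks tested, 26.8% were embryonic and 17.4% extraembryonic by 2-fold.

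Gdf3 (ENSMUSG00000030117, chr6:122605403-122610087), a ligand that can pair with Nodal, was scarce. It had 101 UMIs in embryonic and 16 in extraembryonic nuclei, or 1.35 and 0.281 CPM, a 4.80-fold difference (2.82 to 8.72). The fold was 9.80 with at least 2000 UMIs and 2000 peak counts per nucleus and 8.66 at clustering resolution 0.5. Epiblast held 77 of these UMIs at 1.96 CPM, 5.48-fold (2.25 to 17.3) above embryonic mesoderm with 5 UMIs at 0.358 CPM. In the ectoplacental cone class no UMI was found, for which 3 UMIs, the limit taken for a count of 0, would be 0.730 CPM and the exact Poisson interval ends at 0.897 CPM. No class differed from the next in order beyond counting error.

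The Gdf3 promoter peak (chr6:122609519-122610395) had a different order from the RNA. It was most accessible in embryonic mesoderm (19.6 CPM) and extraembryonic mesoderm (19.3 CPM) and held 4.08 CPM in epiblast, where the RNA was highest. Embryonic mesoderm stood 4.79-fold (3.94 to 5.84) above epiblast in accessibility. Over 20 RNA clusters, which share libraries and differ in depth, Spearman's rho between promoter and RNA was 0.17 for Gdf3. Of 24 peaks tested, 4 were embryonic and 1 extraembryonic by 2-fold (26.8% and 17.4% of all peaks).

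The co-receptor Tdgf1 (ENSMUSG00000032494, chr9:110939608-110946158) was at 242 CPM in embryonic and 66.9 CPM in extraembryonic RNA, 3.62-fold (3.49 to 3.75). Embryonic mesoderm led with 479 CPM, 4.16-fold (4.01 to 4.33) above epiblast at 115 CPM. The anterior streak, node and definitive endoderm class (362 CPM) and primitive streak (278 CPM) lay between. These 3 classes differed from each other and from extraembryonic mesoderm (216 CPM) beyond counting error. Haemato-endothelial nuclei, at 215 CPM of Tdgf1, were uneven: their 281-nucleus cluster, with a median of 2415 peak counts, held 356 CPM and their 303-nucleus cluster 128 CPM. Defined by RNA, haemato-endothelial nuclei held 84.1 CPM of Tdgf1, beside 183 CPM in extraembryonic mesoderm. Without these mesodermal extraembryonic classes the embryonic excess was 7.17-fold. In the Sfrp5-led cluster, where Nodal was highest, Tdgf1 was at 36.9 CPM, not apart from visceral endoderm (33.4 CPM), ectoplacental cone (36.0 CPM) or parietal endoderm (38.9 CPM) in the order.

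Nodal and Tdgf1 UMIs could be read in the same thinned nuclei. In epiblast, 35.3% (30.3 to 40.6) of nuclei with a Nodal UMI had a Tdgf1 UMI, against 25.5% (24.0 to 27.1) of those without. The epiblast RNA cluster with 54.1 CPM of Nodal held 171 CPM of Tdgf1, and the one with 20.5 CPM of Nodal held 77.0 CPM. The part of this difference between clusters in the shares was not tested. In primitive streak the shares were 57.1% (48.9 to 65.1) and 54.1% (50.7 to 57.5), which overlap. In the Sfrp5-led cluster they were 3.60% (0.990 to 8.97) and 11.3% (8.33 to 14.98), with overlapping intervals, beside 9.73% of all extraembryonic ectoderm nuclei, the background share.

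No peak overlapped the window from 1000 bp before to 100 bp after the Tdgf1 start. A peak centred 1432 bp upstream (chr9:110947223-110947957) had the highest fold of the locus, 3.86 (3.43 to 4.35). It was at 39.7 CPM in embryonic mesoderm, 37.2 CPM in the anterior streak class, 32.0 CPM in primitive streak and 26.1 CPM in extraembryonic mesoderm, against 7.20 CPM in visceral endoderm and 1.21 CPM in extraembryonic ectoderm. The Sfrp5-led cluster had 26.8 CPM at the peak, 3.72-fold (2.83 to 4.87) above visceral endoderm. Its Tdgf1 RNA was not apart from that class when both were defined by chromatin. Defined by RNA, as for the peak, the cluster held 37.8 CPM of Tdgf1, beside 26.9, 30.6 and 48.2 CPM in the visceral endoderm RNA clusters. Pearson's r between the peak and Tdgf1 RNA over 20 RNA clusters was 0.78. The lowest fold, 0.117 (0.0969 to 0.142), was at a peak 47246 bp upstream (chr9:110992982-110993826), nearest to the start of Rtp3.

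Cfc1 (ENSMUSG00000026124, chr1:34535648-34544311), the other co-receptor, differed little between the sides: 35.1 CPM in embryonic and 30.6 CPM in extraembryonic RNA, 1.15-fold (1.08 to 1.22). With the Sfrp5-led cluster counted as extraembryonic the ratio was 0.97, and at clustering resolution 0.5 it was 2.04. The anterior streak, node and definitive endoderm class held 114 CPM, 12.3-fold (10.9 to 13.9) above epiblast at 9.23 CPM. Extraembryonic mesoderm (74.7 CPM) and the Sfrp5-led cluster (77.9 CPM) followed and did not differ from each other beyond counting error, and the lowest level was in ectoplacental cone nuclei (5.84 CPM). Among visceral endoderm clusters, the one with the highest Nodal also had the highest Cfc1 (84.4 CPM), 3.84-fold (3.09 to 4.81) above the lowest (22.0 CPM). Cfc1 overlaps Prss40 and Gm28419 in RefSeq, and no source here says how reads of overlapping genes were assigned.

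The small Cfc1 promoter peak (chr1:34535107-34535838) was at 11.9 CPM in the anterior streak class, 7.17 CPM in the Sfrp5-led cluster, 6.63 CPM in embryonic mesoderm and 6.56 CPM in visceral endoderm, and at 1.83 CPM in epiblast and 0.304 CPM in extraembryonic ectoderm. Extraembryonic mesoderm had 4.08 CPM (2.55 to 6.17) at the promoter, and 66.4 CPM of Cfc1 RNA in the same RNA-defined nuclei. Haemato-endothelial nuclei had 1.84 CPM from 7 counts, and 16.4 CPM of RNA in those nuclei. The anterior streak class stood 6.49-fold (4.85 to 8.72) above epiblast. Over 20 RNA clusters Pearson's r with Cfc1 RNA on the log2(CPM + 1) scale was 0.90, the highest of any promoter of the 10 genes, and 0.00911% of all peaks with at least 100 counts had as high an r with it. The distal peaks at the ends of the Cfc1 range, 18708 bp upstream and 8299 bp downstream, had folds of 0.321 and 2.36.

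**Figure D4:**
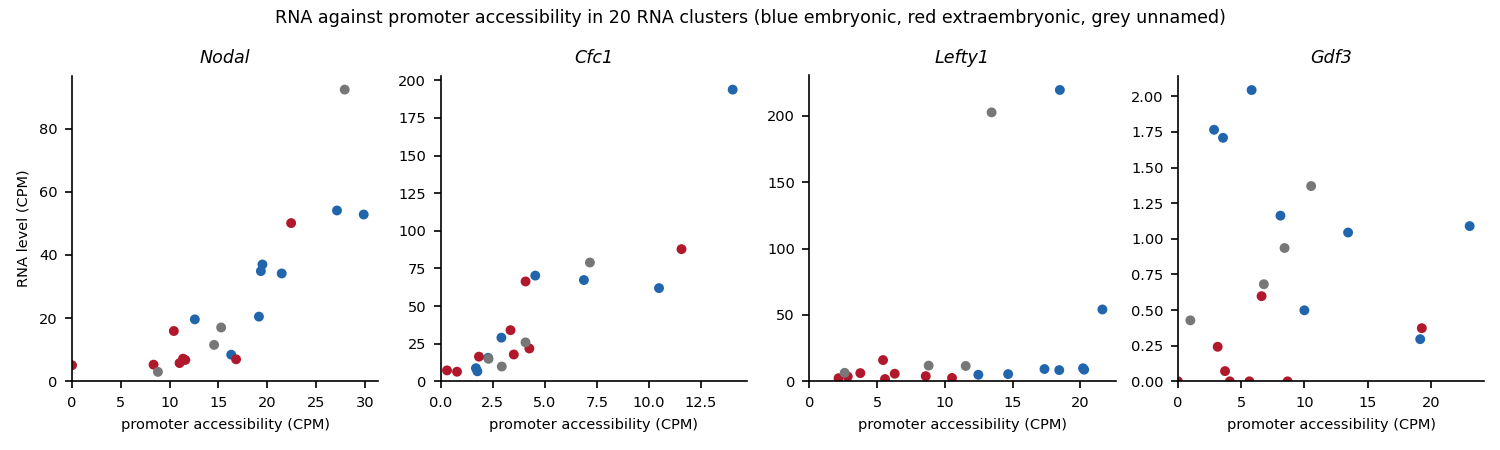
RNA level against promoter accessibility, both in CPM, for 20 RNA clusters made without the 10 genes; blue clusters are embryonic, red extraembryonic and grey unnamed. Spearman's rho is 0.92 for Cfc1, 0.91 for Nodal, 0.54 for Lefty1 and 0.17 for Gdf3.

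The antagonist Lefty1 (ENSMUSG00000038793, chr1:180935022-180938401) was at 23.2 CPM in embryonic and 5.73 CPM in extraembryonic RNA, 4.05-fold (3.60 to 4.58). The anterior streak, node and definitive endoderm class held 115 CPM, 12.3-fold (10.9 to 13.8) above epiblast at 9.41 CPM. The Sfrp5-led cluster was higher still, at 149 CPM (140.5 to 158). The other 9 classes spanned 3.74 to 9.41 CPM, and none of them differed from the next in order beyond counting error. RefSeq lists Gm39715 over part of Lefty1. After thinning, 19.8% of nuclei in the anterior streak class and 17.8% in the Sfrp5-led cluster had a Lefty1 UMI, against 1.37% in extraembryonic ectoderm.

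The Lefty1 promoter did not share that contrast. Its 2 promoter peaks (chr1:180933377-180934216 and chr1:180934582-180935402) summed to 20.4 CPM in the anterior streak class and 19.4 CPM in epiblast, a ratio of 1.05 (0.895 to 1.23), although the RNA was 12.3-fold apart between the accessibility-defined classes. In the RNA clusters, Lefty1 RNA was at 54.1 and 219.5 CPM in the anterior streak ones and from 8.47 to 9.85 CPM in the epiblast ones. Over embryonic and extraembryonic nuclei the promoter differed 4.28-fold (3.65 to 5.05). The class contrast was instead found at a peak 8468 bp upstream (chr1:180926143-180926966), with 20.6 CPM in the anterior streak class, 18.1 CPM in the Sfrp5-led cluster and 1.57 CPM in epiblast. There the anterior streak class was 13.1-fold (9.87 to 17.6) above epiblast, and Pearson's r with Lefty1 RNA over 20 clusters was 0.88. This peak was chosen after its values were seen, as the one with the highest r of the locus.

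Of 26 Lefty1 peaks tested, 11 were embryonic and 2 extraembryonic by 2-fold (26.8% and 17.4% of all peaks). The highest fold, 6.39 (5.28 to 7.79), lay 10060 bp upstream (chr1:180924514-180925410), with 34.5 CPM in the anterior streak class and 16.5 CPM in epiblast. The lowest, 0.157 (0.109 to 0.221), lay 17565 bp downstream (chr1:180952132-180953043), where visceral endoderm (7.58 CPM) and the Sfrp5-led cluster (9.505 CPM) were highest. A peak 5128 bp upstream (chr1:180929443-180930345) was more accessible in the Sfrp5-led cluster (21.9 CPM) than in the anterior streak class (10.1 CPM), 2.17-fold (1.58 to 2.98). The groups of nuclei with the highest Lefty1 RNA thus differed at this peak, which had the next highest r of the locus, 0.76.

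Lefty2 (ENSMUSG00000066652, chr1:180893108-180899107), the neighbouring antagonist gene, was at 41.4 CPM in embryonic and 9.24 CPM in extraembryonic RNA, 4.48-fold (4.08 to 4.92). Embryonic mesoderm held 176 CPM (169 to 183), 15.7-fold (13.1 to 18.9) above primitive streak at 11.2 CPM. The Sfrp5-led cluster, highest for Lefty1, had 6.62 CPM, and extraembryonic ectoderm had 5.72 CPM. After thinning, 34.7% of embryonic mesoderm nuclei had a Lefty2 UMI, against 1.80% in extraembryonic ectoderm. Lefty1 and Lefty2 are close paralogs, and molecules that fit both could be lost or split in counting. Their levels over 23 accessibility clusters had a Pearson's r of 0.12.

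The next class for Lefty2, haemato-endothelial nuclei at 32.5 CPM, was uneven. Its 281-nucleus cluster with a median of 2415 peak counts held 73.4 CPM and its 303-nucleus cluster with a median of 19206 held 7.50 CPM, 9.78-fold apart (6.43 to 15.4). When haemato-endothelial nuclei were defined by RNA, their Lefty2 was at 5.74 CPM. The role of low peak depth in placing the 281 nuclei was not tested.

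At Lefty2, 11 of 27 peaks tested were embryonic and 0 extraembryonic by 2-fold (26.8% and 17.4% of all peaks), and 19 of the peaks are also in the Lefty1 window. The peak 2820 bp upstream (chr1:180889851-180890726) held 51.3 CPM in embryonic mesoderm, 15.97 CPM in extraembryonic mesoderm, 12.98 CPM in primitive streak and 6.75 CPM in epiblast. Embryonic mesoderm was 7.60-fold (6.64 to 8.72) above epiblast, and r with Lefty2 RNA over 20 clusters was 0.87. This peak was chosen after its values were seen, by that r. The highest fold, 6.39, was at the peak 31854 bp downstream already described upstream of Lefty1, and the lowest, 0.665, 44847 bp upstream. The promoter peak (chr1:180892781-180893550) was small, at 4.31 CPM in embryonic mesoderm and 2.63 CPM in epiblast, with an embryonic fold of 2.28 (1.68 to 3.13).

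Cer1 (ENSMUSG00000038192, chr4:82881751-82885151), which encodes a secreted binder of Nodal and other ligands, was at 39.8 CPM in embryonic and 11.9 CPM in extraembryonic RNA, 3.34-fold (3.07 to 3.63). As with Lefty1, the anterior streak, node and definitive endoderm class (239 CPM) and the Sfrp5-led cluster (178 CPM) were far above the rest, and visceral endoderm came next at 17.8 CPM. The anterior streak class was 32.4-fold (28.7 to 36.7) above epiblast at 7.37 CPM. An unnamed cluster of 555 nuclei with a median of 1776 UMIs had 42.8 CPM of Cer1 and is in no class. Over 23 accessibility clusters Cer1 and Lefty1 had a Pearson's r of 0.89, the highest of the 45 pairs. After thinning, 33.5% of anterior streak class nuclei had a Cer1 UMI, against 2.33% in extraembryonic ectoderm.

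RNA clusters divided the anterior streak, node and definitive endoderm class further. A cluster led by Pax7, Mecom and Sox17, the last a definitive endoderm marker, held 512 CPM of Cer1. A cluster led by Foxj1 and other genes of motile cilia, which are built in the node, held 64.9 CPM, 7.89-fold (7.07 to 8.81) less. Lefty1 (219.5 and 54.1 CPM, 4.05-fold, 3.57 to 4.62) and Cfc1 (194 and 61.9 CPM, 3.13-fold, 2.76 to 3.55) had the same direction. The RNA-defined Sfrp5-led cluster had 215 CPM of Cer1, 0.42 times (0.392 to 0.451) the Sox17 cluster, while its Lefty1 (203 CPM) was 0.923 times it (0.845 to 1.01), not apart beyond counting error.

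Cer1 and Lefty1 were also found in the same nuclei. In the Sfrp5-led cluster, 38.2% (30.4 to 46.4) of thinned nuclei with a Cer1 UMI had a Lefty1 UMI, against 8.58% (5.82 to 12.1) of nuclei without. In the anterior streak, node and definitive endoderm class the shares were 32.8% (27.6 to 38.3) and 13.3% (10.7 to 16.2). In epiblast they were 3.57% (0.743 to 10.1) and 2.26% (1.79 to 2.82), and the intervals overlap. The anterior streak class combines RNA clusters that differ in both genes in the same direction, and their part in these shares was not tested. Of the other pairs read this way, Nodal and Lefty1 gave overlapping shares in the Sfrp5-led cluster. There 12.6% (7.07 to 20.3) of nuclei with a Nodal UMI had a Lefty1 UMI, against 19.3% (15.4 to 23.6) of those without.

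The Cer1 promoter peaks (chr4:82884883-82885723 and chr4:82885893-82886705) together held 42.7 CPM in the Sfrp5-led cluster, 39.7 CPM in the anterior streak class, 17.5 CPM in embryonic mesoderm, 7.55 CPM in visceral endoderm and 4.85 CPM in epiblast. The first of them was 10.7-fold (8.46 to 13.5) higher in the anterior streak class than in epiblast and 1.35-fold (1.08 to 1.68) higher in the Sfrp5-led cluster than in the anterior streak class. In the 2 RNA clusters of embryonic mesoderm, the Cer1 promoter held 18.1 and 12.2 CPM beside 10.6 and 14.7 CPM of RNA. Among the distal Cer1 peaks, the highest fold, 3.33, lay 6806 bp upstream, and the lowest, 0.0656 (0.0404 to 0.102), 14201 bp downstream (chr4:82870528-82871366), nearest to the start of Zdhhc21 and highest in extraembryonic ectoderm at 12.1 CPM. Of 18 Cer1 peaks tested, 5 were embryonic and 3 extraembryonic (26.8% and 17.4% of all peaks).

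**Figure D5:**
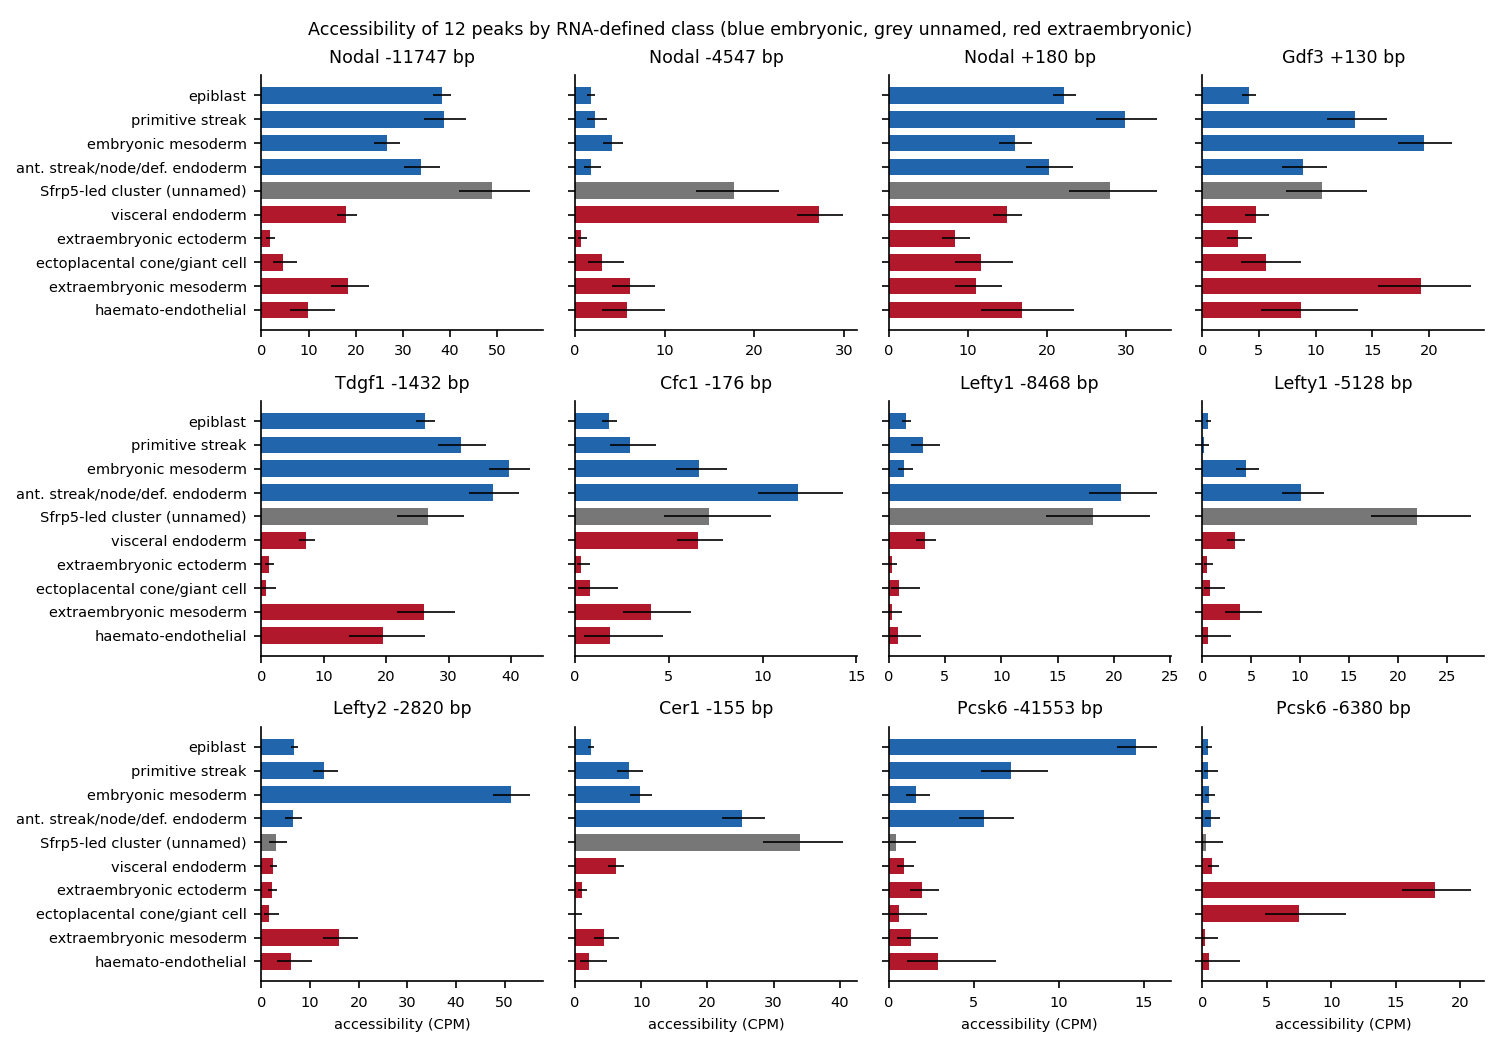
Accessibility in CPM of 12 peaks, named by gene and by the distance of the peak's centre from its start, in RNA-defined classes and the Sfrp5-led cluster, with 95% counting intervals from estimated fragments; the parietal endoderm class of 32 nuclei is not drawn. The Nodal peak at −4547 bp is highest in visceral endoderm and the one at −11747 bp in the Sfrp5-led cluster, epiblast and primitive streak.

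Foxh1 (ENSMUSG00000033837, chr15:76667829-76671614), the nuclear partner of Smad2 in the Nodal response, was scarce, with 178 UMIs in embryonic and 90 in extraembryonic nuclei, or 2.38 and 1.58 CPM, 1.504-fold (1.16 to 1.96). The class levels ran from 5.20 CPM (3.37 to 7.68) in extraembryonic mesoderm to 0.988 CPM in extraembryonic ectoderm, and no class differed from the next in order beyond counting error. After thinning, at most 1.82% of nuclei in any class had a Foxh1 UMI, against 0.423% in extraembryonic ectoderm. Foxh1 overlaps Kifc2 in RefSeq.

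The peak at the deposited Foxh1 start, here called its promoter (chr15:76669434-76670341), had more counts than the RNA. It held 24.4 CPM in primitive streak, 19.1 CPM in extraembryonic mesoderm, 18.6 CPM in embryonic mesoderm, 18.04 CPM in epiblast and 15.8 CPM in extraembryonic ectoderm, and 3.71 CPM in visceral endoderm, 6.59-fold (4.97 to 8.83) below primitive streak. The intervals of neighbours in this order overlapped down to extraembryonic ectoderm, and visceral endoderm stood apart from all 5. Haemato-endothelial nuclei (15.2 CPM), the anterior streak class (13.1 CPM) and ectoplacental cone (11.6 CPM) lay between extraembryonic ectoderm and visceral endoderm. The Sfrp5-led cluster was low too, at 6.29 CPM (3.99 to 9.43), and its interval overlapped that of visceral endoderm (2.88 to 4.71). Parietal endoderm had only 6 counts, 10.5 CPM (2.17 to 30.8). The deposited start, 76669948, lies inside the RefSeq gene, whose 5′ end on the minus strand is 76671614. The promoter window did not reach that end, and Foxh1 distances are from the deposited start. None of 24 Foxh1 peaks was 2-fold embryonic and 6 were extraembryonic (26.8% and 17.4% of all peaks), with folds from 0.0823 (0.0666 to 0.101) at the peak 49909 bp downstream (chr15:76619609-76620470, nearest to the start of Slc39a4) to 1.89 at the one 48571 bp upstream. The peak 20471 bp upstream (chr15:76689962-76690877), nearest to the start of Gpt, was at 36.6 CPM in visceral endoderm and 1.36 CPM in epiblast.

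Furin (ENSMUSG00000030530, chr7:80389194-80405441), a convertase that cleaves pro-Nodal, was 2.37-fold (2.21 to 2.55) higher in extraembryonic than in embryonic RNA, at 36.1 and 15.2 CPM. Visceral endoderm held 50.8 CPM, 3.37-fold (3.04 to 3.73) above epiblast at 15.1 CPM. Haemato-endothelial nuclei followed at 42.7 CPM (28.2 CPM in their 281-nucleus and 51.6 CPM in their 303-nucleus cluster), and primitive streak was lowest at 13.7 CPM. The promoter peak (chr7:80402397-80403127) was at 38.9 CPM in visceral endoderm and 22.1 CPM in epiblast, 1.76-fold apart (1.59 to 1.94). Other classes had a different order from the RNA. Extraembryonic ectoderm had 36.2 CPM at the peak and 21.1 CPM of Furin RNA in the same RNA-defined nuclei. Haemato-endothelial nuclei defined by RNA had 23.1 CPM at the peak and 50.9 CPM of RNA. Over 20 RNA clusters Spearman's rho between promoter and RNA was 0.37. Against 26.8% and 17.4% of all peaks, 1 of 24 was embryonic (2.16-fold, 5114 bp upstream) and 6 extraembryonic, the strongest 35487 bp upstream (chr7:80440473-80441363), 6.52-fold higher in extraembryonic nuclei and highest in extraembryonic ectoderm at 17.2 CPM. RefSeq lists Gm44851 over part of Furin.

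Pcsk6 (ENSMUSG00000030513, chr7:65862136-66050386), the other convertase, was 3.10-fold (2.90 to 3.31) higher in extraembryonic RNA, at 52.2 against 16.8 CPM. Extraembryonic ectoderm held 179 CPM (172 to 186), 8.12-fold (7.51 to 8.78) above epiblast at 22.0 CPM. An unnamed cluster of 355 nuclei, whose leading genes included Adm and Sox21 and which is in no class, had 150.5 CPM of Pcsk6 (138 to 163). Ectoplacental cone nuclei had 50.4 CPM, and visceral endoderm was lowest at 4.08 CPM, although its neighbour in role, Furin, was highest there. After thinning, 40.2% of extraembryonic ectoderm nuclei and 6.21% of epiblast nuclei had a Pcsk6 UMI, against 1.11% in visceral endoderm. RefSeq lists Gm51486 over part of Pcsk6.

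Distal peaks at Pcsk6 differed between extraembryonic ectoderm and epiblast in both directions. The peak 6380 bp upstream (chr7:65855198-65856101) held 18.01 CPM in extraembryonic ectoderm, 7.53 CPM in ectoplacental cone and 0.466 CPM in epiblast, 38.6-fold (24.5 to 63.9) apart between the first and the last. The peak 41553 bp upstream (chr7:65820017-65820936) held 14.6 CPM in epiblast and 1.97 CPM in extraembryonic ectoderm, 7.39-fold (4.88 to 11.7) in the other direction, and had the highest embryonic fold near any of the 10 genes, 7.66. The promoter peak (chr7:65861672-65862571), which also covers another gene's start, was accessible in every class, from 16.3 CPM in embryonic mesoderm to 30.9 CPM in extraembryonic ectoderm. Of 17 peaks, 3 were embryonic and 8 extraembryonic (26.8% and 17.4% of all peaks).

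For the 8 genes with at least 500 UMIs, the genes with the most similar RNA levels over the 23 accessibility clusters were found by Pearson's r on the log2(CPM + 1) scale among 12306 genes. For Nodal they were Igfbp2 (0.94), Gm29266 (0.93) and Col2a1 (0.89). Tdgf1 was closest to Dact1, Zfp385b and Grm8 (0.95 to 0.94), and Cfc1 to Lhx1os, Col23a1 and Zfp362 (0.93 to 0.89). Lefty1 and Cer1 had Fzd8 first (0.92 and 0.90) and each other among the closest 3, with Shisa2 (0.89) for Lefty1 and Scel (0.87) for Cer1. Lefty2 was closest to Mesp2 (0.94), Dll3 (0.92) and Pcdh8 (0.90), of which Mesp2 and Pcdh8 are among the markers used to name mesoderm. Furin had Nfatc2, Itprid2 and Scarb1 (0.94 to 0.93), and Pcsk6 had Ranbp17, F730043M19Rik and Tbc1d2 (0.97 to 0.96). The clusters share 1 library and differ in depth.

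Other genes of the pathway were read from lists by role, and their counts stand beside 14.5% embryonic and 12.1% extraembryonic calls over all genes. Of the activin receptors, Acvr2b was 2.19-fold (2.12 to 2.26) higher in embryonic RNA, while Acvr1b (1.11) and Acvr2a (1.19) were below 2-fold and Acvr1c had 19 embryonic and 12 extraembryonic UMIs and was not counted. None of the 4 Smad effectors and partners was 2-fold apart: Smad2 0.92, Smad3 0.62, Smad4 1.28 and Trim33 1.57. Of 10 intracellular inhibitors, 2 were embryonic, near the share over all genes, and 0 extraembryonic, from Pmepa1 (3.49) to Smad7 (0.55). Of 4 tested related ligands and antagonists, 2 were embryonic and 1 extraembryonic, from Fst (4.52), a binder of activin, to Nog (0.42), a binder of bone morphogenetic proteins. Both embryonic genes of this list, Fst and Chrd, are markers that helped name the classes, so their direction is no result. Gdf1, another partner of Nodal, had 0 UMIs on both sides. No source here says whether its reads could be assigned, so this 0 is not read as absence.

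Of the 4 other convertases, 2 were embryonic and 1 extraembryonic, with Pcsk2 highest (11.996) and Pcsk5 lowest (0.457). Neither receptor complex inhibitor was 2-fold apart, at 0.57 for Nomo1 and 0.74 for Ncln. Of 10 target genes, 4 were embryonic, Lhx1 (3.90) highest, but 9 of the 10 are markers that helped name the classes, so their direction is no result. Of the 7 anterior visceral endoderm genes, Otx2 (7.86), Lhx1 (3.90) and Sfrp1 (2.54) were embryonic, Sfrp5 (0.33) extraembryonic, and Hhex (1.54), Dkk1 (0.72) and Hesx1 (1.12) neither. Otx2, Lhx1 and Hesx1 are class markers too, and their direction is no result. These folds leave out the Sfrp5-led cluster. The median log2 fold was 0.25 over the receptors, 0.12 over the Smads, 0.20 over the intracellular inhibitors and 0.96 over the related ligands and antagonists. It was 1.04 over the other convertases, −0.62 over the receptor complex inhibitors, 0.92 over the target genes and 0.62 over the anterior visceral endoderm genes, beside 0.03 over all genes tested. The medians of the related ligands and antagonists, the target genes and the anterior visceral endoderm genes include class markers.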

How the data were processed

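Nuclear RNA and accessibility were measured in the same nuclei of pooled embryos at embryonic day 7.0. The authors deposited whole-number counts, UMIs per gene and counts per peak, in 1 matrix of 15341 barcodes, made with Cell Ranger ARC 2.0.0 on mm10 per the submitters' processing notes. The other columns used, feature coordinates per the file headers, were taken as deposited. Totals were 182201512 UMIs and 273131304 peak counts, of which 86.4% of nonzero values were even; for intervals, fragments were estimated by dividing each value by 2 and rounding up.

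Barcodes were kept with 1000 or more UMIs from 500 or more genes, 1000 or more counts in peaks, and no more than 20% of UMIs mitochondrial (13896); 1100 of these, among 1153 doublet calls (7.52% of barcodes), were removed, leaving 12796. Each assay was clustered with scanpy 1.11.5 and leidenalg 0.10.2 at resolution 1, without the genes or peaks under study, into 20 RNA and 23 accessibility clusters, 4 of each unnamed. Names came from marker lists, by a scoring rule set after the data were seen. The 10 genes and all lists were chosen with earlier results of these data known.

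Levels (CPM) are counts divided by the class total and scaled to a common total. Intervals are exact Poisson for levels, exact conditional binomial for folds and exact (Clopper-Pearson) binomial for shares, at 95%, and cover counting error only. A gene or peak was called 2-fold apart with at least 100 summed counts. With 1 library there was no test across samples. The fold code was checked on simulated data. Named were all 10 genes, the extremes of each pathway list (receptors, Smads and anterior visceral endoderm genes all), the 3 most alike genes, promoter peaks (1000 bp before to 100 bp after a start) and the distal peaks of highest and lowest fold; further peaks, clusters within classes and printed promoters were chosen after their values were seen. Marker and pathway genes come from textbook knowledge. Whether counting used strand is not given in the sources used here. Alternatives covered filters, doublets, resolution, the assay defining classes, depth, scaling, windows and what counts as extraembryonic. Of the peaks and genes this rule names, 2 are not reported here.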

Additional observations from a re-analysis of the deposited data

How the results depend on the processing

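With the Sfrp5-led cluster counted as extraembryonic, an alternative added after the data were seen, the count of the 10 genes at least 2-fold embryonic fell from 6 to 3 and the Cfc1 ratio turned to 0.97. Over the other alternatives run the count lay between 6 and 8, and 2 genes were 2-fold extraembryonic in each. Without a minimum on UMIs, 10644 in place of 4194 genes lay 2-fold apart. Restricting peaks to 20 kb left 24 embryonic and 19 extraembryonic peaks of 103 tested, in place of 38 and 35 of 207. Over all peaks, 26.8% were embryonic and 17.4% extraembryonic. The embryonic share of the 103 peaks was nearer to that of all peaks than the 18.4% of the main window was. The embryonic shortfall near the 10 genes thus depended on the window, and fewer peaks were tested in the narrower one. The fold over all peaks near Cer1 crossed 1, from 0.952 to 1.06 with doublets kept, 1.07 at resolution 0.5, 1.01 at resolution 2 and 1.13 within 20 kb, and the cause was not tested. The Foxh1 promoter fold fell from 1.75 to 0.954 when the window was widened to 2000 bp to each side. The wider window adds 2 peaks and takes in the RefSeq 5′ end of the gene. Besides those given under each gene above, folds that moved by over 1.5 times were, at resolution 0.5, Nodal RNA (4.64) and the Cfc1, Cer1 and Gdf3 promoters (1.93, 5.70 and 2.45). They were also Lefty2 RNA with classes from RNA clusters (6.75) or without extraembryonic mesoderm and haemato-endothelial nuclei (6.73), the Gdf3 promoter without those nuclei (2.06), the Cer1 promoter with the Sfrp5-led cluster as extraembryonic (1.33) and the Lefty1 promoter at 2000 bp (2.65). The cause was not tested. Smaller moves are not all listed, and some left the counting intervals given above. Nodal RNA fell to 2.62 with at least 2000 UMIs and 2000 peak counts per nucleus, and to 2.61 with doublets kept. Tdgf1 RNA rose to 4.86 and 4.17 in these settings, while Foxh1 RNA, at 1.76 and 1.49, stayed within its interval. Median-of-ratios scaling moved log2 folds by -0.05. Depth limits Gdf3 and Foxh1, for which the order of most classes was not detectable. No analysis paired across embryos was possible because each assay has 1 library.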
